A study of Mus musculus with 6 samples.

Results

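Sites of open chromatin that differed between CXD101-treated and vehicle-treated tumor M-MDSCs were described here across the genome. The members were all peaks of the pair of deposited lists that set the CXD101 group against the vehicle group. Gained peaks had more signal after CXD101 than after vehicle (284 peaks) and lost peaks had more signal after vehicle (693 peaks), so that 977 of the 11800 peaks of the series were members. M-MDSCs, monocytic myeloid-derived suppressor cells, had been sorted as CD11b+Ly-6Chi Ly-6G- cells from tumors of wild-type young adult female C57BL/6 J mice, in which Hepa 1-6 hepatoma cells had been transplanted into the liver. All groups carried this tumor, and the mice received either vehicle or CXD101 by daily intraperitoneal injection. Another group received MS-275. Each group had 2 libraries, which the authors pooled before they called peaks, and a value per library was not used here. None of the differences below therefore has a replicate check, and the significance of a peak is that of the authors' test on pooled reads.

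Histone deacetylases (HDACs) remove acetyl groups from histone tails, which makes nucleosomes hold DNA more tightly. CXD101 inhibits the class I enzymes HDAC1, HDAC2 and HDAC3, which act mostly inside corepressor complexes at promoters and enhancers. M-MDSCs are immature monocyte-like cells that gather in tumors and restrain T cells, and their enhancers are shaped by myeloid transcription factors such as PU.1, C/EBP and the AP-1 family. In ATAC-seq a transposase inserts sequencing adapters where DNA is accessible, and a peak summit is the base with the highest pileup of tags.

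The level of a site is given in tags, on the depth of the vehicle group. For the group with more signal it is the number of overlapping tags at the summit in the pooled libraries. For the group with less signal it is the highest of several averages that the peak caller takes around the summit, so it need not be a whole number and is an upper estimate of the tags at the summit itself. The pooled CXD101 group held 1.137 tags for each tag of the vehicle group. The gained summits lay in 260 intervals and the lost summits in 605. At gained summits the median level was 47.9 tags after CXD101 and 16 after vehicle. At lost summits it was 50 tags after vehicle and 15.9 after CXD101. The fold enrichment, the ratio of both levels after 1 tag was added to each, had a median of 2.84 at gained sites (range, 1.64 to 6.85) and of 2.72 at lost sites (range, 1.39 to 7.07). It reached 4 or more at 33 gained and 68 lost summits. At least 100 tags in the group with more signal were found at 119 lost and 12 gained sites. The level of the weaker group cannot fall below a library-wide average of 5.84 tags in these lists, and 38 lost sites after CXD101 and 10 gained sites after vehicle stood at that floor. In sorted bulk cells, a smaller share of cells with an open site and a less open site in each cell cannot be told apart.

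**Figure D1:**
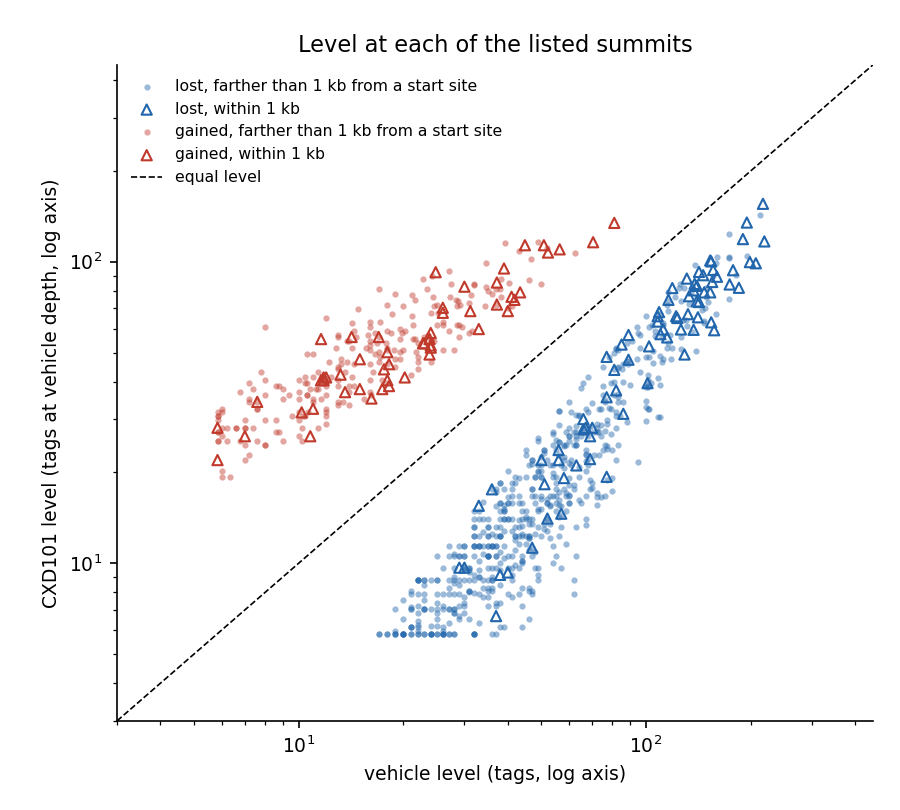
Level of each of the 977 summits after vehicle (x axis) and after CXD101 (y axis), in tags on log axes. Circles are summits farther than 1 kb from a protein-coding start site and triangles those within 1 kb, and the lost sites near start sites sit at the upper end of the lost cloud with a median of 112 vehicle tags.

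A short sequence was found at 14.4% of the lost and 0.704% of the gained summits. The consensus of AP-1, the Fos-Jun dimer that drives many stimulus-dependent enhancers, reads TGACTCA or TGAGTCA (the reverse complement of one is the other). The strongest lost sites outside UTRs with such a match within 50 bp of the summit are shown with the match in capitals (50 bases either side of the summit, plus strand of mm10). They lay at chr4:133614498-133614598 (in an intron of Zdhhc18), chr1:87551291-87551391 (in an intron of Neu2), chr13:46959421-46959521 (between genes, 29.75 kb upstream of Kif13a) and chr13:30603934-30604034 (between genes, 56.02 kb upstream of Dusp22).
Zdhhc18: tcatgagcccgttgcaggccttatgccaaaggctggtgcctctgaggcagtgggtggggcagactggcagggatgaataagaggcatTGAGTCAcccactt
Neu2: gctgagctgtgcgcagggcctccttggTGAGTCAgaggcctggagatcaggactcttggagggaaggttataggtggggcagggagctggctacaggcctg
Kif13a: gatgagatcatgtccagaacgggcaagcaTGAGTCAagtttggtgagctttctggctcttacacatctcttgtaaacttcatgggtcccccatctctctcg
Dusp22: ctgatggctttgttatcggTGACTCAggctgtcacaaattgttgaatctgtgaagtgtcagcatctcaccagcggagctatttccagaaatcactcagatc
The Zdhhc18 site held 75 tags after vehicle and 23.7 after CXD101, a 3.07-fold difference. The Neu2 site went from 73 to 22.9 tags, the Kif13a site from 37 to 7.39 and the Dusp22 site from 49 to 13.2.

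To show the base composition of gained sites, the windows of 5 of them are given with every CG dinucleotide in capitals: the 2 strongest, which lay far from start sites, and 3 near start sites. The strongest of all lay at chr10:86166941-86167041, in an intron of Syn3, and the next at chr1:72509193-72509293, in an intron of March4. The gained sites near the start sites of Zfp467, Igf2bp3 and Nedd4 lay at chr6:48444323-48444423, chr6:49215264-49215364 and chr9:72662145-72662245. All reach 50 bases either side of the summit, on the plus strand of mm10.
Syn3: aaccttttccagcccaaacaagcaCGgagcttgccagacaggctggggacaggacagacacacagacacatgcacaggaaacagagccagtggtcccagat
March4: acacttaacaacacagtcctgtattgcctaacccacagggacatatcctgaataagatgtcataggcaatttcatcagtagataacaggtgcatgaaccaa
Zfp467: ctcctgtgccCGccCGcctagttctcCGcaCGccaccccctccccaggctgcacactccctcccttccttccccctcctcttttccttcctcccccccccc
Igf2bp3: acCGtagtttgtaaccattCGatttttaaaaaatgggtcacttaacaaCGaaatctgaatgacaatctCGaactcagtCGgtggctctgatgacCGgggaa
Nedd4: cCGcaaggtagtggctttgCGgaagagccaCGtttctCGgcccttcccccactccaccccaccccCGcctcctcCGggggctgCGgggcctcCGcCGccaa
The Syn3 window held 1 CG dinucleotide and the March4 window 0, against 4 in the Zfp467, 6 in the Igf2bp3 and 9 in the Nedd4 window.

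The 15 strongest gained intervals, ranked by the authors' p-value, held 55.4 to 115.2 tags after CXD101 and 8 to 39.2 after vehicle. They lay mostly away from promoters: 2 were within 1 kb of a protein-coding start site, 8 were farther than 50 kb from one, and 8 were inside a protein-coding gene. The intron site of Syn3, which encodes a synaptic vesicle protein, rose from 8 tags after vehicle to 60.7 after CXD101 (6.85-fold, −log10 q = 24.01), and it had the largest fold of all gained summits. The site in March4, a membrane-bound ubiquitin ligase, rose from 17 to 80.9 tags (4.55-fold). An intron site of Cabcoco1, a calcium-binding coiled-coil protein of cilia, rose from 12 to 65.1 tags. These 3 sites held 8 to 17 tags after vehicle, where the median of all gained sites was 16.

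A site 119.14 kb upstream of Tbl1xr1, a subunit of the NCoR and SMRT corepressors that carry HDAC3, rose from 19 to 78.3 tags. A site 87.75 kb downstream of the start of Prdm2, a member of the PR-domain histone methyltransferase family, rose from 21.2 to 77.4 tags. A site 64.94 kb upstream of Mbnl1, a splicing regulator, rose from 23.4 to 80.9 tags. The nearest start site names these genes, and no link between site and gene was measured. The RNA-binding protein gene Igf2bp3 had a gained site 357 bp upstream of its start site, which rose from 11.6 to 55.4 tags (4.48-fold).

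The rest of the 15 lay at genes of varied function. The site in Ddx60, an RNA helicase induced by interferon, rose from 22.8 to 87.9 tags. The site in Ostf1, an SH3-domain protein named for osteoclasts, rose from 39.2 to 115.2 tags, which was the highest CXD101 level of the 15. Hif3a, a subunit of the hypoxia-inducible factors, had a site that rose from 18 to 72.1 tags. The remaining sites, in Pappa (a protease of IGF-binding proteins) and outside protein-coding genes nearest to Etnk1 (an ethanolamine kinase), Pja2 (a ubiquitin ligase) and Cracr2a (a regulator of calcium channels), rose between 3.37-fold and 4.46-fold.

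The 15 strongest lost intervals held 57 to 157 tags after vehicle and 7.9 to 59.3 after CXD101. Of these, 10 were inside a protein-coding gene and 1 was within 1 kb of a start site. The strongest lay in an intron of a noncoding gene, 130.25 kb upstream of Zfp703, a zinc finger corepressor, and fell from 62 tags to 7.91 (7.07-fold higher after vehicle, −log10 q = 26.5). The next, 10.45 kb upstream of Commd4, fell from 62 to 8.79 tags. Both were near the 5.84-tag floor after CXD101.

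Some of these 15 sites lay inside genes of known function in myeloid cells or chromatin. Anpep, which encodes the myeloid surface peptidase CD13, held a site that fell from 80 to 17.4 tags and a second one that fell from 83 to 24.6. Baiap2, an adaptor protein of the actin cytoskeleton, held an intron site that fell from 63 to 10.6 tags (5.54-fold). A site in an intron of Dnmt3a, a DNA methyltransferase that sets new methyl marks, fell from 76 to 16.7 tags. The intergenic site 3.75 kb upstream of Treml1, in the cluster of Trem receptors, fell from 67 to 13.4 tags. Its neighbour, 4033 bp upstream of the same start site, fell from 42 to 13.2.

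The other strongest lost sites differed in how much signal was left. Wdr62, a spindle pole protein, fell from 95 to 21.6 tags, Sgms1, a sphingomyelin synthase, from 110 to 30.6, and Ccdc12 from 108 to 30.6. Bahcc1, a chromatin reader with a BAH domain, fell from 80 to 19.2 tags. Ttc7b and Pxk fell from 72 to 15.6 and from 74 to 16.5. A site 724.20 kb from the start of Inhba, the activin subunit gene, fell from 57 to 9.67 tags, and at that distance the name says little about the gene. A site 55.51 kb upstream of Mtdh fell from 67 to 14.1 tags and was the 1 site of the 15 with an AP-1 match, 93 bp from its summit.

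**Figure D2:**
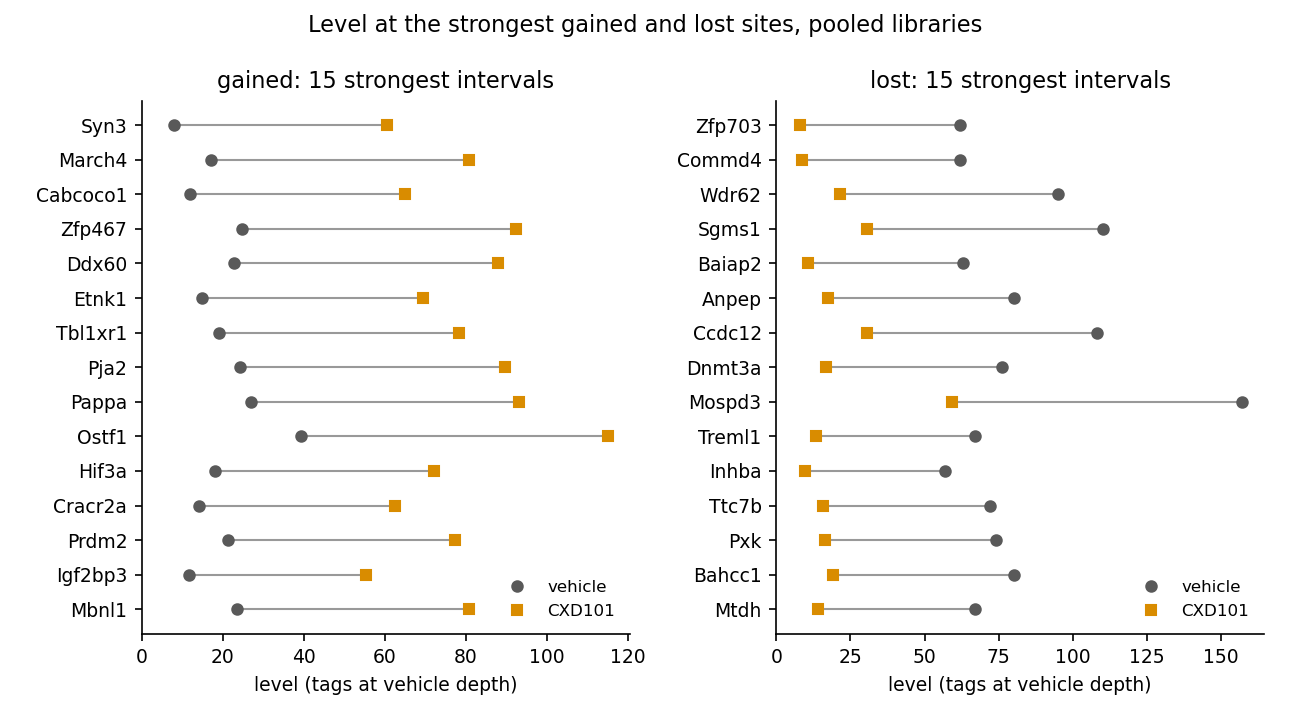
Level in tags after vehicle (circles) and CXD101 (squares) at the 15 gained and 15 lost intervals with the highest −log10 p-value, named by the gene that holds the summit or the nearest start site. Each value is 1 pooled group without an error bar, and Syn3 rose from 8 to 60.7 tags whereas the Zfp703 site fell from 62 to 7.91.

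Sites within 1 kb of a protein-coding start site differed between gains and losses in level and in base composition. The 52 gained summits near start sites had a median of 53.2 tags after CXD101 and 21.5 after vehicle, with a median fold of 2.38. The 75 lost summits there had a median of 112 tags after vehicle and 59.5 after CXD101, with a median fold of 1.99, and 39 of them (52.0%) were below 2-fold. Lost summits farther away were weaker but changed more, with medians of 47 and 14.9 tags and a median fold of 2.85. The lower folds of lost sites near start sites went with higher tag counts, at which the authors' test calls a smaller fold. The median GC content within 100 bp of a summit was 67.4% at gained and 54.7% at lost start sites. A CpG ratio (observed over expected CG dinucleotides) of 0.6 or more was found at 39 of 52 gained sites (75.0%, 95% Wilson interval 61.8 to 84.8) and at 37 of 75 lost sites (49.3%, 38.3 to 60.4), and these intervals cover counting error only.

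The 10 strongest gained sites within 1 kb of a start site rose between 2.21-fold and 4.48-fold. Zfp467, a zinc finger transcription factor, had a site 337 bp upstream that rose from 24.8 to 92.3 tags, and Gabbr1, a subunit of the GABA-B receptor, one 186 bp upstream that rose from 44.8 to 113.4. Nbea, a scaffold protein of synapses, rose from 7.6 to 34.3 tags at its start site and Dach1, a developmental transcription factor, from 17 to 56.3. The proteases Usp51 and Senp6, which remove ubiquitin and SUMO, rose from 14.2 to 56.3 and from 30 to 82.7 tags. Slc16a7, a monocarboxylate transporter, rose from 50.8 to 113.4 tags. Fam135a and Fam181b rose from 39 to 95 and from 26 to 70.3 tags.

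The 10 strongest lost sites within 1 kb of a start site fell between 1.99-fold and 3.83-fold. Hspa9, the mitochondrial Hsp70 chaperone, fell from 185 to 82 tags, and Immt, which organizes mitochondrial cristae, from 199 to 99.7. Scd4, a stearoyl-CoA desaturase, fell from 77 to 19.4 tags 816 bp upstream of its start site. Yif1a, a protein of transport between the endoplasmic reticulum and the Golgi, fell from 154 to 63. Mospd3 fell from 157 to 59.3 tags, Leng8 from 207 to 98.8, Camk2g, a calmodulin-dependent kinase, from 129 to 49.2, Ccdc189 from 137 to 59.4 and Ift140, a component of cilia, from 174 to 84.1. Synpo, an actin-binding protein, fell from 57 to 14.6. Of these, only Scd4 and Synpo had under 100 tags after vehicle, and both had a higher fold (3.83 and 3.72) than the other 8.

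Gained and lost summits lay in different parts of the genome. Within 1 kb of a protein-coding start site lay 18.3% of the gained summits (95% Wilson interval 14.2 to 23.2) and 10.8% of the lost summits (8.72 to 13.4), where 2.50% of the genome lies. Counted within 5 kb upstream only, the order was reversed, with 10.2% of gained and 12.1% of lost summits. Farther than 50 kb from any such start site lay 40.1% of gained (34.6 to 45.9) and 18.3% of lost summits (15.6 to 21.4), and 52.7% of the genome. The lost summits were instead 1 to 50 kb from a start site in 70.8% of cases, against 41.5% of the gained. Inside protein-coding genes lay 48.2% of gained and 60.3% of lost summits, with 40.5% of the genome. Open chromatin is itself gathered near genes, and its share near start sites in these cells was not used here, so the genome's share is a reference for length alone.

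The lost summits were also unevenly spread over chromosomes. Chromosomes 11 and 19 held 115 lost summits (16.6%, 14.01 to 19.5) and 18 gained summits (6.34%, 4.05 to 9.80), where they make up 6.91% of the genome. Per megabase, chromosome 19 held 0.756 and chromosome 11 held 0.598 lost summits, against 0.271 for all chromosomes together and 0.0183 for X, which held 3. The gained summits were densest on chromosome 10 (0.220 per megabase against 0.111 overall). Chromosomes 11 and 19 are dense in genes, and the density of open sites on each chromosome was not tested. Repeats covered more than 50% of the window at 5.63% of gained and 7.79% of lost summits, against 28.1% of windows across the genome.

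**Figure D3:**
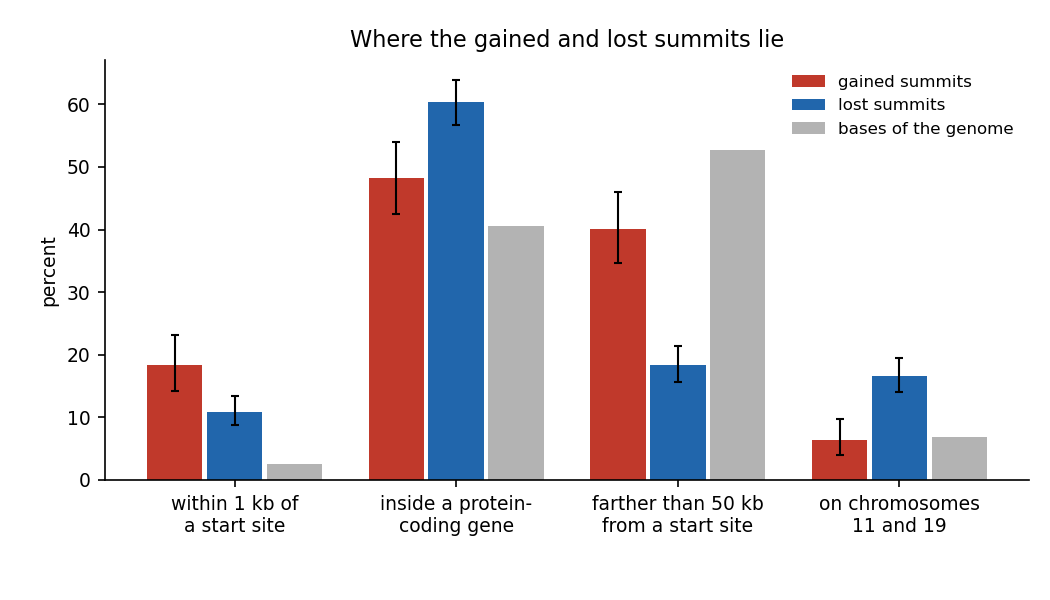
Percent of gained summits, lost summits and genome bases in 4 classes of position. Error bars are 95% Wilson intervals, which cover counting error only, and the lost summits show 16.6% on chromosomes 11 and 19 where the gained summits show 6.34%.

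Of the 21 motifs searched on both strands, AP-1 had the largest difference between the lists. A match to TGACTCA or TGAGTCA lay within 100 bp of 100 of 693 lost summits (14.4%, 12.01 to 17.2) and of 2 of 284 gained summits (0.704%, 0.193 to 2.53). Of windows of the same length across the genome, 3.12% held a match. Of the 100 lost summits, 95 were farther than 1 kb from a start site and 12 held more than 1 match. The matches were spread over the window: the nearest match was a median of 52 bp from the summit, and 48 of 100 were within 50 bp. How exactly a summit marks the centre of an open site was not tested. Lost sites with a match had a median of 43 tags after vehicle and 14.1 after CXD101 and a median fold of 2.68, and those without had 52 and 16.5 tags and 2.74.

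The other motifs were found at more similar shares of both lists. The NF-kB consensus was found at 27 lost (3.90%) and 5 gained summits (1.76%), against 1.46% of windows. The PU.1 match GAGGAAGT was found at 18 lost (2.60%) and 3 gained summits (1.06%), against 1.20% of windows. The C/EBP pattern TTGCNNAA was found at 7.22% of lost and 6.69% of gained summits, below the 9.43% of windows. The GC box GGGGCGGGG, bound by factors of the KLF and SP families, was found at 2.46% of gained and 1.30% of lost summits, against 0.359% of windows. Farther than 1 kb from a start site the order was reversed, with 2 of 232 gained (0.862%) and 7 of 618 lost summits (1.13%). The E-box CAGCTG was found at 12.3% of both, against 7.26% of windows. Summit windows were richer in G and C than windows at large (median GC content, 48.8% gained, 49.3% lost and 41.8% of windows), and the shares were not adjusted for this. A match is not a bound factor.

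**Figure D4:**
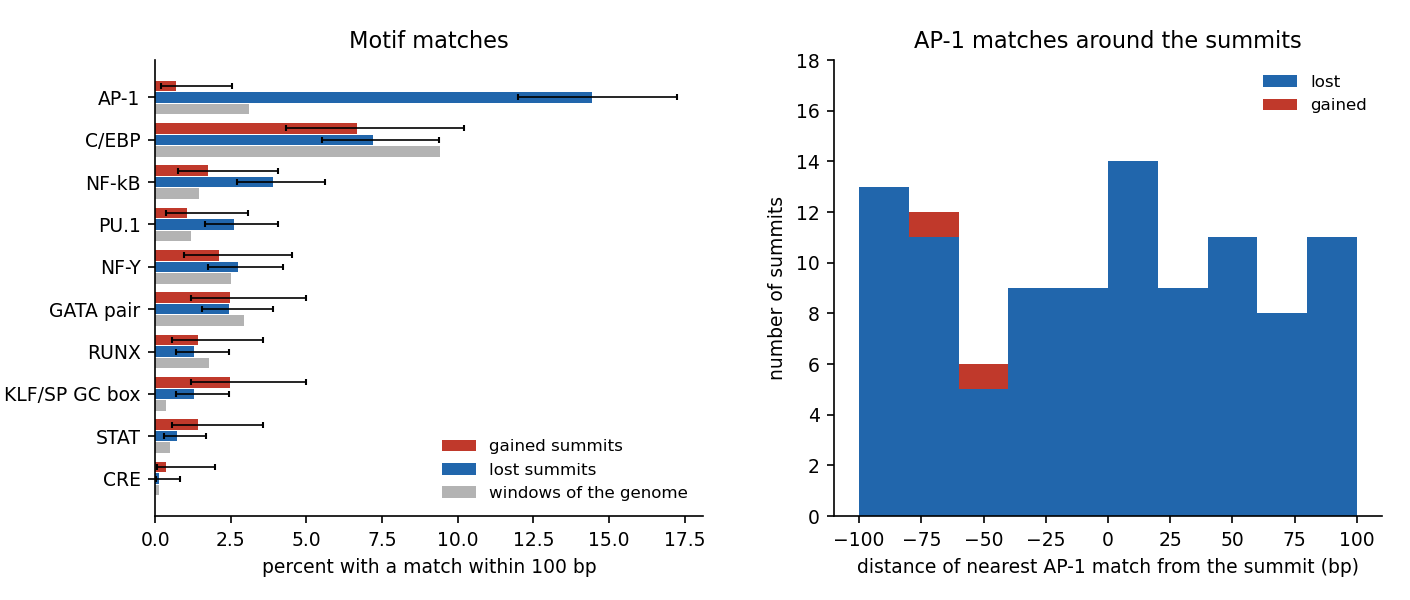
Left, percent of gained and lost summits with a motif match within 100 bp, with 95% Wilson intervals, and of windows of the same length across the genome (grey). Right, distance in bp of the nearest AP-1 match from the summit at the 100 lost and 2 gained summits with a match.

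Genes were tied to a peak when the summit lay in the gene or in the 5 kb upstream of it. By this rule 136 of 21728 protein-coding genes (0.626%) had a gained peak and 410 (1.89%) a lost peak. With a wider rule, a summit within 50 kb of a start site, these were 256 genes (1.18%) and 1125 genes (5.18%). Long genes catch more summits, so the number of summits per megabase of gene is given beside some of the lists. Over all genes it was 0.132 gained and 0.390 lost. The lists of genes below were described by counts alone.

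The list of lipid handling and lipid-associated macrophage genes had lost peaks in 4 of 35 cases (11.4%, 3.44 summits per megabase) and gained peaks in 0. Of all genes 1.89% had a lost and 0.626% a gained peak. Npc1, which moves cholesterol out of lysosomes, fell from 147 to 63.5 tags, Ppard, a lipid-sensing nuclear receptor, from 116 to 53.6, and Lrp1, a scavenging receptor, from 58 to 24.5. The lists for hypoxia and glycolysis had 2 of 32 genes with a lost peak (6.25%, 1.82 summits per megabase). Pfkfb3, which activates glycolysis, fell 2.46-fold to 40.5 tags and Pfkl, a phosphofructokinase, from 47 to 17.6.

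Receptors of the lectin, Fc, Trem and scavenger families had lost peaks in 4 of 40 genes (10.0%, 3.32 summits per megabase) and a gained peak in 1 (2.5%). Of all genes 1.89% had a lost and 0.626% a gained peak. The Fc receptor genes Fcgr2b and Fcgr3 lie in 1 cluster on chromosome 1. A site 2078 bp upstream of Fcgr2b, the inhibitory receptor of IgG, fell from 76 to 27.4 tags (2.71-fold). A site 388 bp into Fcgr3, an activating receptor, fell from 195 to 134.9 tags, 1.44-fold. Mertk, which takes up dying cells, fell from 63 to 21.1 tags and Clec10a, a lectin of macrophages and dendritic cells, from 116 to 74.8. Clec12a, an inhibitory lectin of myeloid cells, held the gained site, which rose from 7.20 to 34.3 tags (4.31-fold).

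Among 50 cytokines, growth factors and their receptors, 3 had a lost and 2 a gained peak. These were 6% and 4%, against 1.89% and 0.626% of all genes. Per megabase the list held 1.29 lost and 1.72 gained summits, and 3 of its 4 gained summits lay in 1 interval. Il1rl1, the receptor of IL-33, fell from 52 to 14.1 tags and Il18rap, a subunit of the IL-18 receptor, from 40 to 14.1. Flt1, a receptor of VEGF, held 3 gained summits in 1 interval at its start site, with 53.6, 41.3 and 37.8 tags after CXD101 over 23, 20.2 and 17.4 after vehicle. Igf1r, the IGF receptor, had a gained site that rose from 20 to 71.2 tags and, in the same gene, a lost site that fell from 32 to 9.15. With the 50 kb rule, 10 of the 50 had a lost peak (20%), against the 5.18% of all genes. These 10 genes are not 10 separate sites: Il18r1 and Il1rl1 share 1 site, and so do Osm and Lif. Of 34 chemokine genes and chemokine receptor genes, 2 had a lost peak (5.88%, against 1.89% of all genes), with 5.69 summits per megabase. At Cx3cr1, the fractalkine receptor of monocytes, 2 summits of 1 interval fell from 52 to 12.8 and from 41 to 12.8 tags. They lay in an intron of the annotated gene model, which spans 168.3 kb, and farther than 50 kb from its start sites. A site 4848 bp upstream of Ccl9, a chemokine of myeloid cells, fell from 35 to 10.6 tags.

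Of the 51 genes of the MAPK and PI3K list, 3 had a lost peak (5.88%, against 1.89% of all genes), with 0.701 summits per megabase. Syk, the kinase downstream of Fc and lectin receptors, fell from 70 to 17.8 tags (3.78-fold). Pik3ap1, an adaptor of PI3K, fell from 76 to 24.6 tags. Spry2, an inhibitor of receptor kinase signalling, held the only gained site of this list and rose from 17.2 to 48.4 tags.

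Lists of immune effectors and transcription factors had few members with a peak. Of 26 MDSC suppressive effectors, Nt5e, the ectonucleotidase CD73 that makes adenosine, had a gained site (18 to 51.9 tags) and Ncf4, a subunit of the NADPH oxidase, a lost one (126 to 73.9). Of 42 Toll-like receptor and inflammasome genes, Nlrp3 had a lost site (58 to 20.8 tags). Of 39 interferon genes, Ifnar2, a subunit of the receptor of type I interferon, had a lost site (77 to 29 tags) and Trim6 a gained one (43.4 to 79.2 tags). Of 30 integrin and adhesion genes, Vcam1 had a gained site (6.60 to 28.1 tags) and Itgax, the integrin CD11c, a lost site with an AP-1 match (50 to 22 tags). Of 35 myeloid transcription factors, Etv6 had a gained site (22 to 48.4 tags) and Bhlhe40 lost sites (43 to 15.8 and 45 to 23.7 tags). Of 44 genes of cell cycle arrest and apoptosis, Xiap had a lost site at its start site (154 to 100.2 tags). Each of these lists had 1 gene with a lost peak, between 2.27% and 3.85%, close to the 1.89% of all genes. A gained peak was found in 1 gene each of the MDSC effector, interferon, adhesion and transcription factor lists. These shares were 3.85%, 2.56%, 3.33% and 2.86%, against 0.626% of all genes, and each rests on 1 gene. With the 50 kb rule the lost shares ran from 2.38% (Toll-like and inflammasome list) to 13.3% (adhesion list), against 5.18% of all genes. By that rule the 4 gained shares became 7.69%, 5.13%, 3.33% and 0%, against 1.18%.

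Few genes of the deacetylase and AP-1 lists had a peak. Of 29 genes of class I deacetylase complexes, 1 had a lost peak (3.45%, against 1.89% of all genes). Gatad2b, a subunit of the NuRD complex, fell from 24 to 5.84 tags. None of 15 acetyltransferase and bromodomain genes and none of 16 AP-1 and Maf genes had a gained or a lost peak in the gene or 5 kb upstream, and none of 23 antigen presentation genes. With the 50 kb rule 3 of the 16 AP-1 and Maf genes, Fosb, Batf3 and Atf3, had a lost peak (18.8%, against 5.18% of all genes). These sites held 63, 89 and 100 tags after vehicle and 31, 45.7 and 66 after CXD101. Lists hold only sites with a q-value below 0.05, so a gene without a peak may still differ by less.

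Synaptic and neuronal genes had gained peaks in 3 of 92 cases (3.26%) and lost peaks in 0. The genes are the longest of the lists, with a median of 314.6 kb, and their 0.118 gained summits per megabase were below the 0.132 of all genes. The 3 genes were Syn3, Rims1, a scaffold of the release site that rose from 7 to 26.4 tags 238 bp upstream of its start, and Dlg2, a scaffold of the receiving side that rose from 16 to 51.

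Ubiquitin ligases that the study discussed were among the gained sites. At Nedd4, a ligase of membrane proteins, a site 151 bp upstream of the start site (chr9:72662055-72662287) rose from 17.6 tags after vehicle to 44 after CXD101, a 2.42-fold difference with a −log10 q of 3.32. At Trim6, a ligase of interferon signalling, a site 194 bp downstream of the start site (chr7:104218929-104219198) rose from 43.4 to 79.2 tags, 1.80-fold with a −log10 q of 2.79. The Nedd4 fold was below the median of 2.84 of gained sites and that of Trim6 was near the lower end of their range. No member lay in or 5 kb upstream of Trim32, Ccr2, Hdac1, Hdac2 or Hdac3, nor within 50 kb of their start sites. Of 9 ligases of the NEDD4 family, Nedd4 alone had a gained and Smurf1 alone a lost peak. These shares were 11.1% each, against 0.626% and 1.89% of all genes, and each rests on 1 gene. The Smurf1 site fell from 56 to 22 tags. Of 46 ligases of the Trim and March families, Trim6 and March4 had gained peaks (4.35%, against 0.626% of all genes) and 0 had a lost peak. With the 50 kb rule 4 of the 46 had a lost peak (8.7%, against 5.18% of all genes): Trim8, Trim47, Trim59 and Trim65. Trim47 and Trim65 share 1 site.

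**Figure D5:**
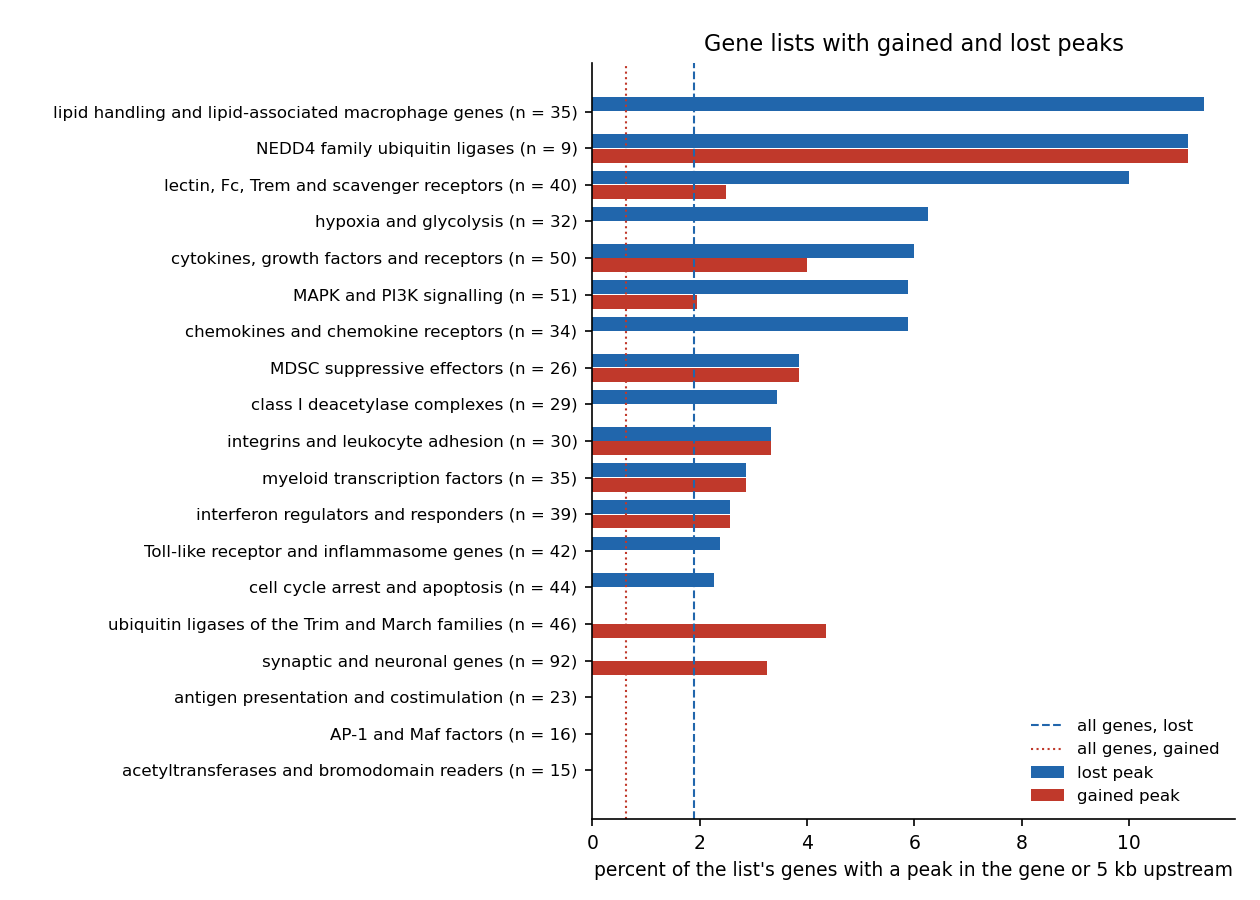
Percent of the genes of each list shown with a lost or a gained peak in the gene or 5 kb upstream, with the number of genes annotated. Dashed and dotted lines are the shares of all protein-coding genes, 1.89% lost and 0.626% gained, and a list of 30 to 50 genes moves by 2% to 3.33% with each gene.

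Some genes held 3 or more summits of a list. March4 held 4 gained summits in 3 intervals within 11.6 kb, which rose to between 29.9 and 80.9 tags from 8.6 to 17. Syn3 and Dach1 each held 3 gained summits in 3 intervals, Flt1 3 in 1 interval, and Asic2, an acid-sensing ion channel, 3 in 2 intervals. Among lost sites Dot1l, the methyltransferase of lysine 79 of histone H3, held 3 summits that fell from 126, 106 and 39 to 56.3, 58.9 and 10.4 tags. Msra, a repair enzyme of oxidized methionine, and Synpo held 4 lost summits each. Dhx34, D17Wsu92e, Plekho2, Acoxl, Igf2bp2 and Cacna1d held 3. Gm20388, a gene model of 4439.9 kb (upstream 5 kb included) that overlaps other genes, held 9.

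Lost sites also lay in runs along the chromosome, which were chosen by their number of intervals after the values were seen. Around the stearoyl-CoA desaturases Scd1, Scd3 and Scd4, 5 lost intervals spread over 159.7 kb of chromosome 19 with folds of 1.98 to 3.97. The site 273 bp upstream of Scd1 fell from 40 to 9.32 tags and that 816 bp upstream of Scd4 from 77 to 19.4. Near the gene of ATP citrate lyase, Acly, which makes the acetyl-CoA for lipid synthesis and histone acetylation, a site 8407 bp upstream fell from 67 to 16.7 tags. Around the IL-1 receptor family genes Il1rl2, Il1rl1 and Il18rap, 3 lost intervals spread over 181.8 kb, with 52, 52 and 40 tags after vehicle. Upstream of Fcgr1, the high-affinity receptor of IgG, 3 lost intervals spread over 31.2 kb, and the nearest summit lay 34.7 kb from its start site. Around Bhlhe40 and Arl8b 4 lost intervals with 6 summits spread over 75.1 kb. Of the 4 runs of gained intervals, 3 lay at March4, Syn3 and Dach1, and the fourth lay 648.48 kb or more from the nearest protein-coding start site, that of Pcmtd1.

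Both gained and lost summits lay in 6 genes (5 kb upstream included): Igf1r, Ston2, Gramd1b, Rgs6, Camk2g and Parvb. Their regions spanned 64.2 to 578.8 kb, where the median of all protein-coding genes was 22.43 kb. The rule did not ask that the summits be close to each other. In Rgs6, a regulator of G protein signalling, a site rose from 6 to 31.7 tags and another fell from 55 to 10.6. In Gramd1b, a cholesterol transporter, a site rose from 5.84 to 22 tags and another fell from 47 to 11.3. In Camk2g, a site rose from 52 to 110.8 tags and another fell from 129 to 49.2.

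The cell type of the libraries cannot be checked from these lists, since a marker whose chromatin is alike in both groups has no entry. Of 93 annotated markers of 11 cell types, 3 had a lost peak in the gene or 5 kb upstream and 0 had a gained one: Cx3cr1 of monocytes, Mertk of macrophages and Itgax of dendritic cells. None of the markers of neutrophils, T cells, B cells, NK cells, hepatocytes, erythroid cells, endothelial cells or fibroblasts had a peak by this rule. With the 50 kb rule 7 of the 93 had a lost and 0 a gained peak, where 5.18% and 1.18% of all genes had one. These were Fcgr1 of monocytes, Mertk of macrophages, Itgax and Batf3 of dendritic cells, Cd3d and Cd3g of T cells, which share 1 site between them, and Kdr of endothelial cells. The Cd3d and Cd3g site fell from 29 to 10.6 tags and the Kdr site, 11.9 kb upstream of its start, from 36 to 5.84 (5.41-fold). Whether the share of any of these cell types in the sort differed between the groups was not tested.

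The MS-275 group was compared by the authors with the same vehicle libraries, so its values are not independent of those of CXD101 and are given only side by side. At the Syn3 site the fold over vehicle was 6.85 for CXD101 and 8.47 for MS-275, at Igf2bp3 4.48 and 6.61, at Zfp467 3.62 and 5.37, at Nedd4 2.42 and 2.81 and at Trim6 1.80 and 2.06. The order was the other way at the strongest March4 site (4.55 and 4.46), the Tbl1xr1 site (3.96 and 3.83) and the stronger Senp6 site (2.70 and 2.28), and none of these differences was tested by this comparison. At lost sites the fold of vehicle over inhibitor was 7.07 and 3.76 at Zfp703, 6.43 and 8.85 at Commd4, 4.40 and 4.60 at Anpep and 3.78 and 4.11 at Syk. At Wdr62, Sgms1, Mospd3 and Inhba no MS-275 peak lay within 250 bp.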

How the data were processed

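ATAC-seq libraries of tumor M-MDSCs were compared between the CXD101 and vehicle groups (2 libraries each), which were assigned by the treatment label. Per the labels and methods, the authors aligned reads with Bowtie2 to mm10. They called peaks with MACS2 2.2.7.1 on the pooled libraries of a group, without a fragment model and with a shift of 0. The methods do not state how far tags were extended, and no peak was narrower than 200 bp. A summit can therefore lie farther from the transposase cuts than the few bases between read end and cut. The deposited lists give a fold enrichment (a linear ratio), a −log10 p-value and a −log10 q-value from a Poisson test, a display score, and the summit position as an offset from the peak start. The score was not used. The highest q-value was 0.0494, and the lists hold −log10 p-values down to 4.497 (gained) and 4.265 (lost), weaker than the p-value threshold named in the methods, and were used as deposited.

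The tags behind each peak were solved from the fold enrichment and p-value with MACS2's formulas (pseudocount of 1). All 977 peaks were solved, 4 with a second solution, and the largest relative error was 1.2e-05. The solution was tested on simulated data. The weaker group's level, taken by MACS2 as the maximum over several neighbourhoods, is an upper estimate. The absolute depth per library was not used here.

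Summits were annotated with GENCODE M21 (mouse), and bases were read from the RefSeq copy of the same assembly. The window share of each motif came from every 20th of consecutive windows of the same length across the chromosomes. Percentages have 95% Wilson intervals, which cover counting error only, and peaks were not treated as replicates in any test. The genes named were the 15 strongest intervals of each list, the 10 strongest within 1 kb of a start site, the members of 21 gene lists and 11 marker lists with a peak in the gene or 5 kb upstream, genes with 3 or more summits or with both kinds, and the genes the study discussed. One of these gene lists and some list members are not reported here. Members and lists were chosen with earlier results of these data known. Runs of sites and genes named by the 50 kb rule were chosen after their values were seen. Alternatives were stricter thresholds, other distances and annotations, narrower windows and a pseudocount of 0. Computations used Python 3.11.15, NumPy 2.4.6, pandas 2.3.3, SciPy 1.17.1 and matplotlib 3.10.9.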

Additional observations from a re-analysis of the deposited data

Results flagged for a closer look

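The list that sets MS-275 directly against CXD101, called without the vehicle libraries, had a summit within 250 bp of 50 of the 284 gained CXD101 sites, with MS-275 over CXD101 by 1.49-fold to 3.25-fold (median 2.18). The list of CXD101 over MS-275 had none at these sites. At the gained site 183 bp upstream of Ndrg2 the direct fold was 2.86, at Zfp467 2.63, at Prdm2 2.56 and in Ostf1 2.21. The same direct list had a summit within 250 bp of 20 of the 693 lost sites, again with MS-275 higher (1.37-fold to 3.20-fold, median 2.05). These included the site upstream of Ccl9 (3.20) and that in Immt (1.72). These were flagged because the groups of both inhibitors differed by the authors' test of the difference itself on pooled reads, with 2 libraries a group and no replicate check. Ndrg2 was named here after its value was seen.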

How the results depend on the processing

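The numbers of gained and lost peaks stayed within 1.5 times of those given under q-values below 0.01 and 0.001, a fold of at least 2 and distinct intervals. The share of gained summits near a start site moved to 14.1% within 500 bp, where that of lost summits was 9.09%. Within 5 kb upstream only it moved to 10.2%, below the 12.1% of lost summits, which reversed the order of the lists. With start sites of all annotated genes the share of lost summits moved to 18.8%, and that of gained summits was 22.9%. The number of genes with a gained peak moved to 256 by the 50 kb rule and to 237 by the nearest start site, and that with a lost peak to 1125 by the 50 kb rule. Within 50 bp of the summit the share with an AP-1 match moved to 6.49% of lost and 0% of gained summits, against 1.54% of windows of that length. With a pseudocount of 0 the median weaker level moved to 17.99 vehicle tags at gained and 17.7 CXD101 tags at lost sites. Of 64 counts of list members, 25 moved by over 1.5 times with the 50 kb rule. No paired analysis was possible because each group entered the peak calling as 1 pool, and leaving out each replicate could not be run for the same reason. Depth limits the lists to sites with at least 17 tags in the stronger group, so weaker sites that differ were not detectable.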
